A study of Mus musculus with 6 samples.

Results

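Immediate early and growth response genes are transcribed within minutes of a signal, without new protein synthesis, and here they were 42 named genes read out of a table of 24318 genes. The members were taken by gene symbol, and all 42 had a row. The samples were 6 RNA-seq libraries from CAD cells, a mouse line of catecholaminergic neuronal origin. In 3 libraries the cells had received siRNA labelled si circGIGYF2 (siCircGigyf2 below), aimed at a circular RNA of the Gigyf2 gene, and in the other 3 a control siRNA labelled si NC (siNC below). All libraries were made from total RNA depleted of ribosomal RNA, and the labels name no other agent, dose or time for either group. Values are FPKM, fragment counts scaled by transcript length and by library size, so that genes can be compared per length within a library.

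In the textbook scheme, growth factors, depolarization or stress activate the Ras-ERK cascade and CREB kinases, which act on SRF with its ETS partners and on CREB already bound at these genes. The transcripts are short-lived, in part because AU-rich elements in their 3' untranslated regions are bound by decay factors of the ZFP36 family. Many of the products are transcription factors of the AP-1, EGR, NR4A and KLF families, and others, such as DUSP1 and the ZFP36 proteins, shut the response down. In neurons the same genes serve as markers of activity, Arc and Fos among them.

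Of the 42 members, 35 reached a mean of at least 1 FPKM over the 6 libraries and were tested, with limma on log2(FPKM + 1) across all 11420 genes above that level. With siCircGigyf2, 16 rose and 2 fell at a Benjamini-Hochberg adjusted p under 0.05, and 17 did not pass. Over all genes tested, 38.2% passed that threshold, 19.5% in the upward and 18.7% in the downward direction, against 45.7% and 5.71% of the tested members. The median log2 difference (siCircGigyf2 minus siNC) was 0.15 over the tested members and 0.00035 over all genes tested. The rises were moderate, from a ratio of mean FPKM of 1.09 (Klf10) to 1.62 (Btg2), with a median ratio of 1.32. For 21 of the 35 tested members the groups lay wholly apart, 17 higher and 4 lower. Over all 11420 genes tested they lay apart for 5822 (51.0%), 2932 higher and 2890 lower. The members were chosen with results of these data known, so these shares are a description of the list.

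**Figure D1:**
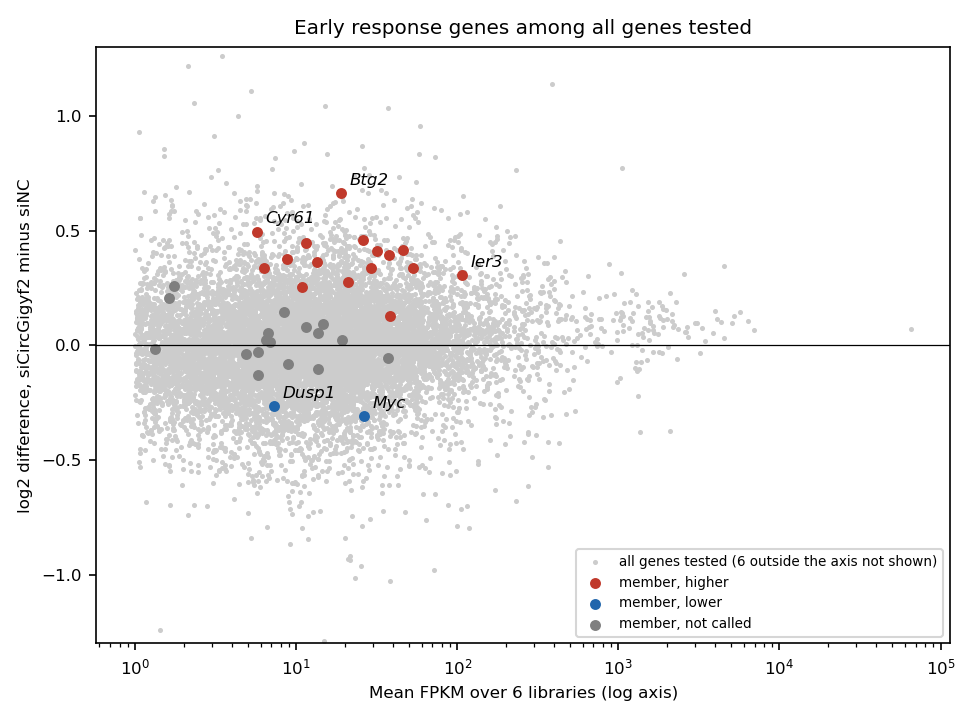
Each point is a gene, with its mean FPKM over the 6 libraries on a log axis and its log2 difference, siCircGigyf2 minus siNC, on the vertical axis. The 16 members that rose (red) lie between 0.13 and 0.66, the 2 that fell (blue) at -0.27 and -0.31, within the cloud of all 11420 genes (grey, of which 6 lie outside the axis).

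Some facts of the libraries bear on these values. The number of fragments was not given, but single-fragment steps among low values placed the siCircGigyf2 libraries at 0.802 to 0.913, and the other siNC libraries at 0.953 and 0.979, of the depth of siNC replicate 1. Depth therefore moved with the group, and its part in the results was not tested. Gigyf2, the host gene, averaged 21.4 ± 0.330 FPKM (SD, n = 3) with siCircGigyf2 and 23.2 ± 0.0749 with siNC. Its log2 difference of -0.11 (SE 0.033, limma adjusted p = 0.0287) passed the threshold, and its groups lay apart. The Gigyf2 row does not separate circular from linear RNA. Of 13 catecholaminergic markers, 11 had a mean of at least 1 FPKM, Slc6a2 was listed at 0 throughout, and their summed FPKM was 1306 to 1349 with siCircGigyf2 and 1406 to 1435 with siNC. Most of that sum was Chgb, at 979 and 1081 FPKM, and of the 11 markers tested 5 fell and 2 rose, Hand2 (169 against 149 FPKM) and Slc18a1 (4.7999 against 3.604 FPKM). Markers of astrocytes, microglia, oligodendrocytes, endothelium and fibroblasts (5 each) were under 1 FPKM on average except Pecam1 and Col1a1. The astrocyte markers summed to 0.0222 to 0.202 FPKM with siCircGigyf2 and 0.0161 to 0.0830 FPKM with siNC, with 3 of 5 at 0, and those of microglia to 0.231 to 0.524 and 0.0609 to 0.208 FPKM. Oligodendrocyte markers summed to 0.861 to 1.19 and 0.810 to 1.10 FPKM, and endothelial ones, nearly all Pecam1, to 5.95 to 7.19 and 5.995 to 6.93 FPKM. Fibroblast markers summed to 1.79 to 2.36 and 1.47 to 2.06 FPKM, with Col1a1 at 1.47 and 0.924 FPKM and Col1a2, Col3a1 and Lum listed at 0. The part of these markers in the members' differences was not tested. In bulk RNA, fewer cells expressing a gene and less of its RNA per cell cannot be told apart.

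Gene structure was not used in choosing the members. In the GENCODE M21 annotation (build GRCm38, matched by symbol for 42 of 42 members and 10608 of 11420 genes tested), the median gene span was 5292 bases for members and 24289 bases for all genes tested. The median number of exons was 4 against 9. No intron was present in 6 of the 42 members, against 279 of the 10608 genes. Those members were Jun, Junb and Jund, which rose, and Ier2, Ier5 and Rhob, which did not pass. The transcripts themselves differed less, with a median length of 2873 against 3177 bases and a median 3' UTR of 1208 against 1193 bases. The 7 bases TATTTAT, a core of AU-rich elements that contains the pentamer ATTTA, occurred in the 3' UTR of 25 of 42 members (59.5%), against 30.9% of 10457 genes tested that had a 3' UTR of at least 50 bases. It was found in 11 of the 16 members that rose, in 10 of the 17 that did not pass, and in 1 of the 2 that fell, so the element was present on every side of the test. ATTTA was more dense in members, with a median of 2.58 per kilobase against 1.34. These member figures include members under the level for testing, whereas the comparison holds only tested genes. For the 35 tested members the median span was 5162 bases, with 4 exons and 2.68 ATTTA per kilobase. TATTTAT was found in 22 of those 35 (62.9%).

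The first such site in each of several 3' UTRs is printed to show the element in members that rose (Fos to Zfp36l2), that fell (Dusp1) and that did not pass (Zfp36). Each line gives 30 bases of the transcript strand on GRCm38, and the capitals mark the TATTTAT of that site. The Ier3 line also holds its next copy, left in lower case.
Fos (chr12:85477103-85477132, plus strand): tgttttcaattTATTTATtaagatggattc
Jun (chr4:95049078-95049107, minus strand): ttgcttgtgcaTATTTATaatagcgttcgt
Maff (chr15:79358778-79358807, plus strand): ttccacactctTATTTATtgcacgaatcta
Klf6 (chr13:5868490-5868519, plus strand): gctacgtctctTATTTATgccttgaggact
Ier3 (chr17:35822481-35822510, plus strand): tgtctaattaaTATTTATgtatttatgtat
Tiparp (chr3:65554880-65554909, plus strand): ttccacacaatTATTTATtttgccctagtt
Btg2 (chr1:134077248-134077277, minus strand): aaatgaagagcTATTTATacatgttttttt
Cyr61 (chr3:145647092-145647121, minus strand): gaatgttttttTATTTATcaaagtgtagct
Zfp36l2 (chr17:84184913-84184942, minus strand): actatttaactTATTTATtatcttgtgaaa
Dusp1 (chr17:26506158-26506187, minus strand): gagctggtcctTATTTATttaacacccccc
Zfp36 (chr7:28376965-28376994, minus strand): agtgggcccttTATTTATgacgactttatt
The same core stands in Zfp36 itself, which encodes tristetraprolin, a protein that binds such elements. Ier3 held 4 copies. The 5 members with 3 copies were Zfp36l2, which rose, Dusp1, which fell, Fosl2 and Zfp36, which did not pass, and Zfp36l1, which was not tested.

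Upstream of the transcription start, 4 motifs of signal-responsive factors were searched on both strands in the 250 bases before each RefSeq start (GRCm38.p6), for 32 members and 8703 of the genes tested, and shares below are of genes. Fosl1, Egr1, Egr3, Klf10, Myc, Ier2, Nfkbiz, Zfp36l2, Ctgf and Arc had no matched window and were not searched. The full cAMP response element TGACGTCA, a site of CREB, was found for 3 members (9.38%) and for 3.34% of all genes. Shorter or variant forms of it were not searched. The EGR pattern GCGNGGGCG, which overlaps GC boxes, was found for 13 members (40.62%) and for 10.81% of all genes. By call, it was found for 2 of 11 searched members that rose (18.18%) and for 9 of 16 that did not pass (56.25%). The untested Klf2 and Klf4 held it as well. The AP-1 sites TGACTCA and TGAGTCA were found for 1 member (Csrnp1, 3.12%) and for 3.72% of all genes. The CArG box, the site of SRF, was found for Srf, Zfp36 and Egr2 (9.38%) and for 1.54% of all genes. Srf and Zfp36 did not pass the test, and Egr2 was not tested. Within those 250 bases, 0 of the 11 searched members that rose held the box. The TATA sequence TATAAA, searched in the same way, was found for 9 members (28.12%) and for 7.23% of all genes. Of the searched members, 3 of 11 that rose (27.27%) and 5 of 16 that did not pass (31.25%) held it. In Fos, Cyr61 and Btg1, which rose, it began 33, 25 and 26 bases before the start. In Gadd45g and Srf, which did not pass, it began 27 and 38 bases before. A match says only that the letters are present in the window. A gene without a match may still hold a variant of the site, or a site outside the 250 bases. Neither was searched.

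The full CREB element is shown for the 3 searched members that held it in the window, since 2 of them rose and 1 fell. Each line is 100 bases from RefSeq on GRCm38.p6, written in the direction of transcription. All are clear of exons of the members' protein-coding transcripts, and exons of other genes were not checked. The capitals mark TGACGTCA and, in Btg2 and Maff, a match to the EGR pattern.
Btg2 (chr1:134079268-134079367, minus strand): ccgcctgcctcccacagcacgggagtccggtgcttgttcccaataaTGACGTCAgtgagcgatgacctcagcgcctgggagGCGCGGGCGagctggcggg
Dusp1 (chr17:26508562-26508661, minus strand): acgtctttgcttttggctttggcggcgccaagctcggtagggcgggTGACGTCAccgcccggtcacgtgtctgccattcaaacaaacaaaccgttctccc
Maff (chr15:79347420-79347519, plus strand): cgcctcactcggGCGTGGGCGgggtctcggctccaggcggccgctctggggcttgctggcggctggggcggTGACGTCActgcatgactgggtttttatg
The element began 166 bases before the start in Btg2, 143 in Dusp1 and 29 in Maff. Btg2 and Maff rose, and Dusp1 fell, as given with their values below.

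The AP-1 group holds FOS and JUN proteins, which pair to bind AP-1 sites, with the related leucine zipper proteins ATF3, MAFF and MAFK. Of 9 tested members 5 rose (55.6%, against 19.5% of all genes tested) and 0 fell (against 18.7%). The JUN genes rose together. Jun, the founding member, was at 14.8, 15.4 and 15.4 FPKM in siCircGigyf2 replicates 1 to 3 and at 11.6, 11.6 and 11.7 FPKM in the siNC replicates. Junb was at 43.2, 44.8 and 40.4 FPKM against 31.8, 31.2 and 34.2 FPKM. Jund, the member that is usually expressed constitutively, was at 12.3, 14.5 and 13.4 FPKM against 10.0, 9.19 and 9.47 FPKM. Every siCircGigyf2 library lay above every siNC library for each of the 3 genes. Their log2 differences were 0.36 (SE 0.039), 0.39 (SE 0.048) and 0.45 (SE 0.062), with limma adjusted p of 0.000179, 0.000362 and 0.000630. Summed, the JUN family averaged 71.4 ± 2.94 FPKM (SD, n = 3) against 53.6 ± 1.73, and Junb made up 59.9% and 60.5% of it.

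The FOS family did not move as a block. Fos, the classical early response gene, was at 35.5, 31.8 and 31.2 FPKM with siCircGigyf2 and at 27.2, 26.2 and 23.9 FPKM with siNC. Its groups did not overlap, and it rose by 0.34 (log2, SE 0.060, limma adjusted p = 0.00231). Fosl2, which encodes FRA2 and was the most abundant FOS gene, was at 38.3, 36.0 and 35.0 against 38.7, 35.5 and 39.4 FPKM, and its groups overlapped (log2 difference -0.05, limma adjusted p = 0.409). Fosb, at 1.13 to 1.47 FPKM over the 6 libraries, had a log2 difference of -0.02 (SE 0.094, limma adjusted p = 0.895), whose sign changed without siCircGigyf2 replicate 2, siNC replicate 1 or siNC replicate 2. Fosl1, which encodes FRA1, was listed at 0 in all 6 libraries. The summed FOS family averaged 70.6 ± 4.11 FPKM (SD, n = 3) against 65.0 ± 2.12, a ratio of 1.09, and the share of Fosl2 was 51.6% against 58.3%.

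Among the other leucine zipper genes, Maff, a small MAF protein, was at 54.0, 51.5 and 51.7 FPKM with siCircGigyf2 and at 40.4, 37.1 and 39.5 FPKM with siNC. It rose by 0.42 (SE 0.039, limma adjusted p = 9.75e-05), and its groups lay apart. Its paralog Mafk, at 5.94 to 7.21 FPKM over all libraries, had a log2 difference of 0.02 (SE 0.069, limma adjusted p = 0.808), which turned negative without siCircGigyf2 replicate 1 or siNC replicate 3. Atf3, a stress-induced factor of low level here, was at 2.50, 1.995 and 1.52 FPKM against 1.31, 1.51 and 1.66 FPKM. The siCircGigyf2 libraries spread widely and overlapped with siNC, and the log2 difference of 0.26 (SE 0.122) did not pass (limma adjusted p = 0.131). Without siCircGigyf2 replicate 3, its lowest library, it was 0.38 and passed (limma adjusted p = 0.0293).

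**Figure D2:**
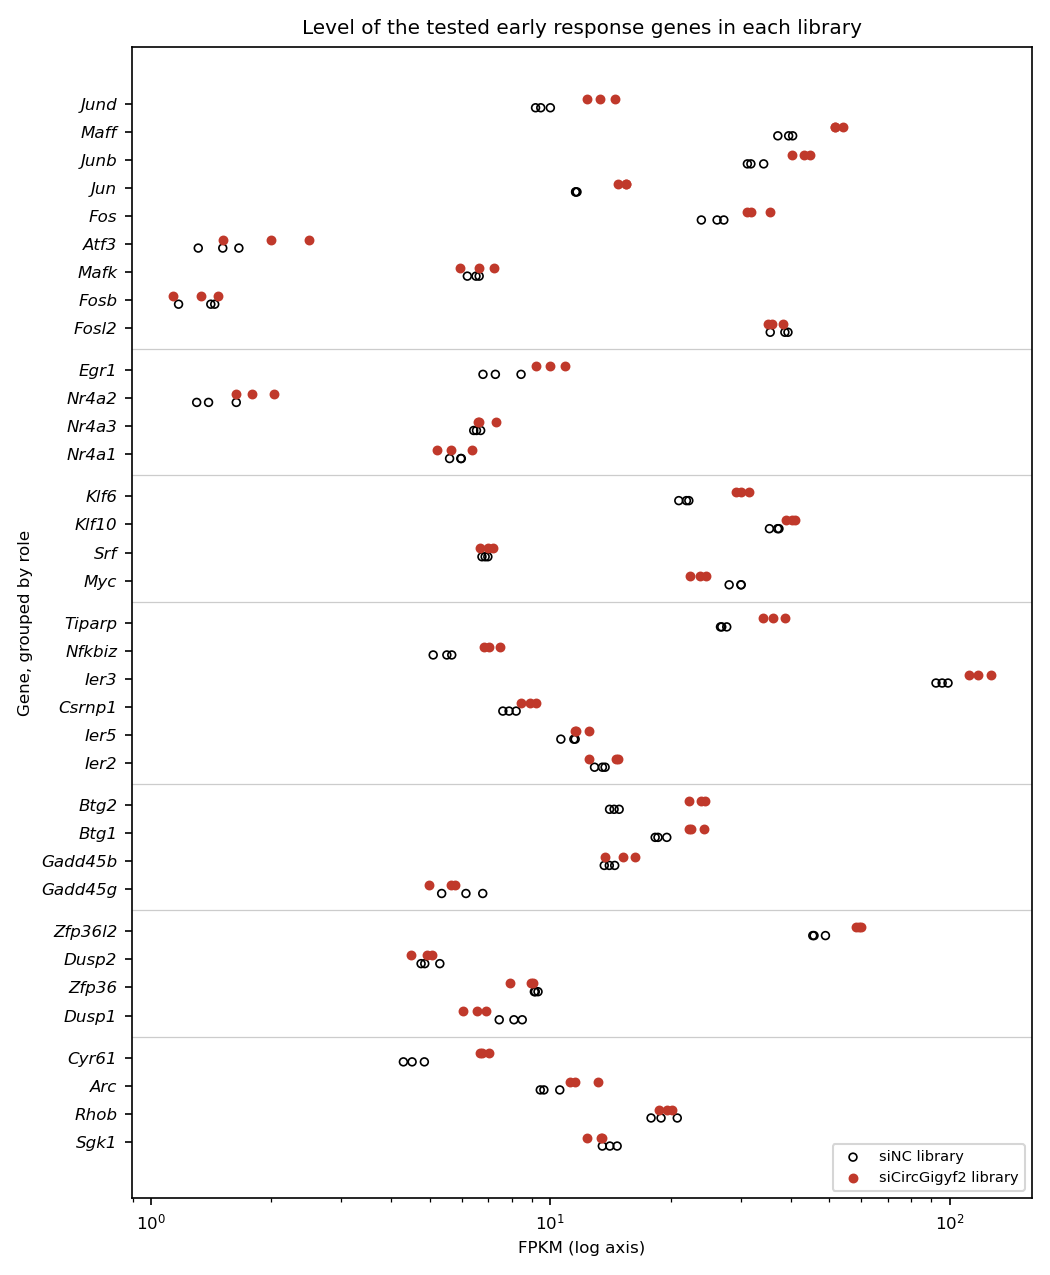
FPKM of the 35 tested members in each library on a log axis, with siCircGigyf2 libraries as filled red points and siNC libraries as open circles, grouped by role. Jun, Junb, Jund, Maff, Klf6, Tiparp, Btg2, Zfp36l2 and Cyr61 show separate groups of points, whereas the points of Fosl2, Mafk, Nr4a1, Srf and Rhob intermingle.

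EGR and NR4A factors are zinc finger proteins and orphan nuclear receptors induced by growth factors and neuronal activity. Of 4 tested, 1 rose (25%, near the 19.5% of all genes tested) and 0 fell (against 18.7%). Egr1 was at 9.96, 9.24 and 10.9 FPKM with siCircGigyf2 and at 7.29, 6.78 and 8.45 FPKM with siNC. All siCircGigyf2 libraries were above all siNC libraries, and Egr1 rose by 0.38 (log2, SE 0.081, limma adjusted p = 0.00627). Egr2 (0.345 to 0.731 FPKM) and Egr3 (0.0351 to 0.153 FPKM) were under the level for testing, and Egr1 made up about all of the family's signal, 94.0% and 94.3% in the respective groups. Nr4a2, which encodes NURR1, a factor of dopaminergic neurons, was at 2.04, 1.79 and 1.63 FPKM against 1.39, 1.302 and 1.64 FPKM. Its groups overlapped by 1 library, and the log2 difference of 0.21 (SE 0.091) did not pass (limma adjusted p = 0.106). Nr4a1 and Nr4a3 averaged 5.74 and 6.85 FPKM with siCircGigyf2 and 5.85 and 6.55 FPKM with siNC. Neither passed, and the sign of Nr4a1 (log2 difference -0.03) changed without siCircGigyf2 replicate 1.

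In the KLF, MYC and SRF group, 2 of 4 tested members rose (50%) and 1 fell (25%). Over all genes tested 19.5% rose and 18.7% fell. Klf6, a zinc finger factor with growth-restraining roles, was at 31.5, 29.1 and 30.1 FPKM with siCircGigyf2 and at 22.2, 21.0 and 21.9 FPKM with siNC. It rose by 0.46 (SE 0.040, limma adjusted p = 7.14e-05), with wide separation of the groups. Klf10, a TGF-beta-inducible factor, was at 40.3, 40.9 and 39.0 FPKM against 37.1, 35.4 and 37.4 FPKM. Its groups lay apart, but its rise of 0.13 (SE 0.035, limma adjusted p = 0.0203) was the smallest among the called members. The call was lost without siCircGigyf2 replicate 1 (limma adjusted p = 0.0524), siCircGigyf2 replicate 2 (0.0577) or siNC replicate 2 (0.0703). Klf2 (0.678 to 1.22 FPKM) and Klf4 (0 to 0.0326 FPKM, listed at 0 in 3 libraries) were not tested.

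Myc, the growth-promoting factor that drives ribosome production and cell cycle entry, was 1 of the 2 members to fall. It was at 23.7, 24.6 and 22.4 FPKM with siCircGigyf2 and at 28.04, 30.1 and 30.0 FPKM with siNC. Every siCircGigyf2 library lay below every siNC library, with a log2 difference of -0.31 (SE 0.045, limma adjusted p = 0.000889) and a ratio of means of 0.801. Srf, the factor that binds serum response elements, averaged 6.94 ± 0.265 FPKM (SD, n = 3) against 6.86 ± 0.117. Its log2 difference of 0.01 (SE 0.050, limma adjusted p = 0.848) did not pass and turned negative without siCircGigyf2 replicate 3.

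The IER group and other nuclear early response proteins included the most abundant member. Of 6 tested, 3 rose (50%, against 19.5% of all genes tested) and 0 fell (against 18.7%). Ier3, a regulator of survival signalling, was at 127, 111 and 117 FPKM with siCircGigyf2 and at 95.8, 92.4 and 99.0 FPKM with siNC. It rose by 0.31 (SE 0.048, limma adjusted p = 0.00128). Tiparp, an ADP-ribosyltransferase and aryl hydrocarbon receptor target, was at 38.8, 36.2 and 34.1 FPKM against 26.7, 26.9 and 27.7 FPKM. For both genes the groups did not overlap, and Tiparp rose by 0.41 (SE 0.047, limma adjusted p = 0.000235). Nfkbiz, an atypical inhibitor of NF-kappa-B, was at 7.03, 7.46 and 6.81 FPKM against 5.09, 5.51 and 5.67 FPKM. It rose by 0.34 (SE 0.059, limma adjusted p = 0.00217), again with separate groups.

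The other 3 genes of that group did not pass. Csrnp1, a nuclear protein induced by AXIN1, was at 8.91, 9.21 and 8.43 FPKM against 7.61, 7.89 and 8.21 FPKM. Its groups lay apart by a small margin and its log2 difference of 0.15 (SE 0.052) just missed the threshold (limma adjusted p = 0.0536). It passed after quantile normalization (0.0334), with a filter of 5 FPKM (0.0483), without a variance trend (0.0468) and without siCircGigyf2 replicate 3 (0.0427). Ier2 and Ier5 averaged 13.96 and 11.9 FPKM with siCircGigyf2 and 13.4 and 11.2 FPKM with siNC, with overlapping libraries, and did not pass (limma adjusted p of 0.531 and 0.261).

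In the antiproliferative and stress-induced group, 2 of 4 tested members rose (50%, against 19.5% of all genes tested) and 0 fell (against 18.7%). Btg2, whose product restrains the cell cycle and binds deadenylases, showed the greatest rise of the 35 tested members. It was at 24.4, 23.9 and 22.2 FPKM with siCircGigyf2 and at 14.1, 14.4 and 14.9 FPKM with siNC. The lowest siCircGigyf2 library was well above the highest siNC library, and the log2 difference was 0.66 (SE 0.045, limma adjusted p = 2.47e-05). Its paralog Btg1 was at 24.2, 22.3 and 22.5 FPKM against 18.6, 18.3 and 19.6 FPKM and rose by 0.27 (SE 0.044, limma adjusted p = 0.00142). The stress sensors of the same group did not pass. Gadd45b, at 13.7 to 16.3 FPKM against 13.7 to 14.5 FPKM, overlapped between groups (limma adjusted p = 0.265). Gadd45g was at 5.77, 5.65 and 4.97 FPKM against 5.35, 6.15 and 6.77 FPKM, also overlapping, with a log2 difference of -0.13 (SE 0.084, limma adjusted p = 0.25003).

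Phosphatases and decay factors are the brakes of the response. Of 4 tested, 1 rose and 1 fell, 25% each, near the 19.5% and 18.7% of all genes tested. Dusp1, the phosphatase that dephosphorylates p38, JNK and ERK in the nucleus, was at 6.54, 6.92 and 6.04 FPKM with siCircGigyf2 and at 7.45, 8.51 and 8.11 FPKM with siNC. It was lower in every siCircGigyf2 library than in every siNC library, with a log2 difference of -0.27 (SE 0.065, limma adjusted p = 0.0114). Dusp2 averaged 4.81 ± 0.289 FPKM (SD, n = 3) against 4.96 ± 0.288, a log2 difference of -0.04 (limma adjusted p = 0.679) whose sign changed without siCircGigyf2 replicate 2 or siNC replicate 3.

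Within the ZFP36 family, the levels and the differences were unequal. Zfp36l2 was at 59.4, 58.4 and 59.9 FPKM with siCircGigyf2 and at 48.9, 45.7 and 45.4 FPKM with siNC. It rose by 0.34 (SE 0.035, limma adjusted p = 0.000160) with separate groups, and it made up 86.2% and 81.9% of the summed family FPKM in the respective groups. Zfp36 was at 7.93, 9.06 and 8.94 FPKM against 9.32, 9.12 and 9.17 FPKM. Its siCircGigyf2 libraries were all lower, by little, and the log2 difference of -0.08 (SE 0.056) did not pass (limma adjusted p = 0.268). Zfp36l1, at 0.741 to 1.23 FPKM, fell just short of the level for testing.

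The effector genes act at the membrane, the matrix and the synapse. Of 4 tested, 2 rose (50%, against 19.5% of all genes tested) and 0 fell (against 18.7%). Cyr61, a secreted matricellular protein and a textbook target of SRF and YAP, was at 6.67, 6.74 and 7.03 FPKM with siCircGigyf2 and at 4.51, 4.84 and 4.29 FPKM with siNC. Its rise of 0.50 (SE 0.058, limma adjusted p = 0.000272) was second to that of Btg2, and its groups did not overlap. Its relative Ctgf was listed at 0 in all 6 libraries. Arc, a synaptic protein that forms capsid-like particles, was at 11.6, 13.2 and 11.2 FPKM against 9.64, 9.44 and 10.6 FPKM. Arc was higher in every siCircGigyf2 library and rose by 0.25 (SE 0.066, limma adjusted p = 0.0154), but the call was lost without siNC replicate 2 (limma adjusted p = 0.0547). Sgk1, a kinase that regulates ion transport, was at 13.4, 13.5 and 12.4 FPKM against 14.7, 14.1 and 13.5 FPKM, lower in each library by a narrow margin, and did not pass (log2 difference -0.10, SE 0.050, limma adjusted p = 0.137). Rhob, a small GTPase of endosomes and actin, averaged 19.5 ± 0.771 FPKM (SD, n = 3) against 19.2 ± 1.48. Its log2 difference of 0.02 (limma adjusted p = 0.770) turned negative without siCircGigyf2 replicate 1 or siNC replicate 3.

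**Figure D3:**
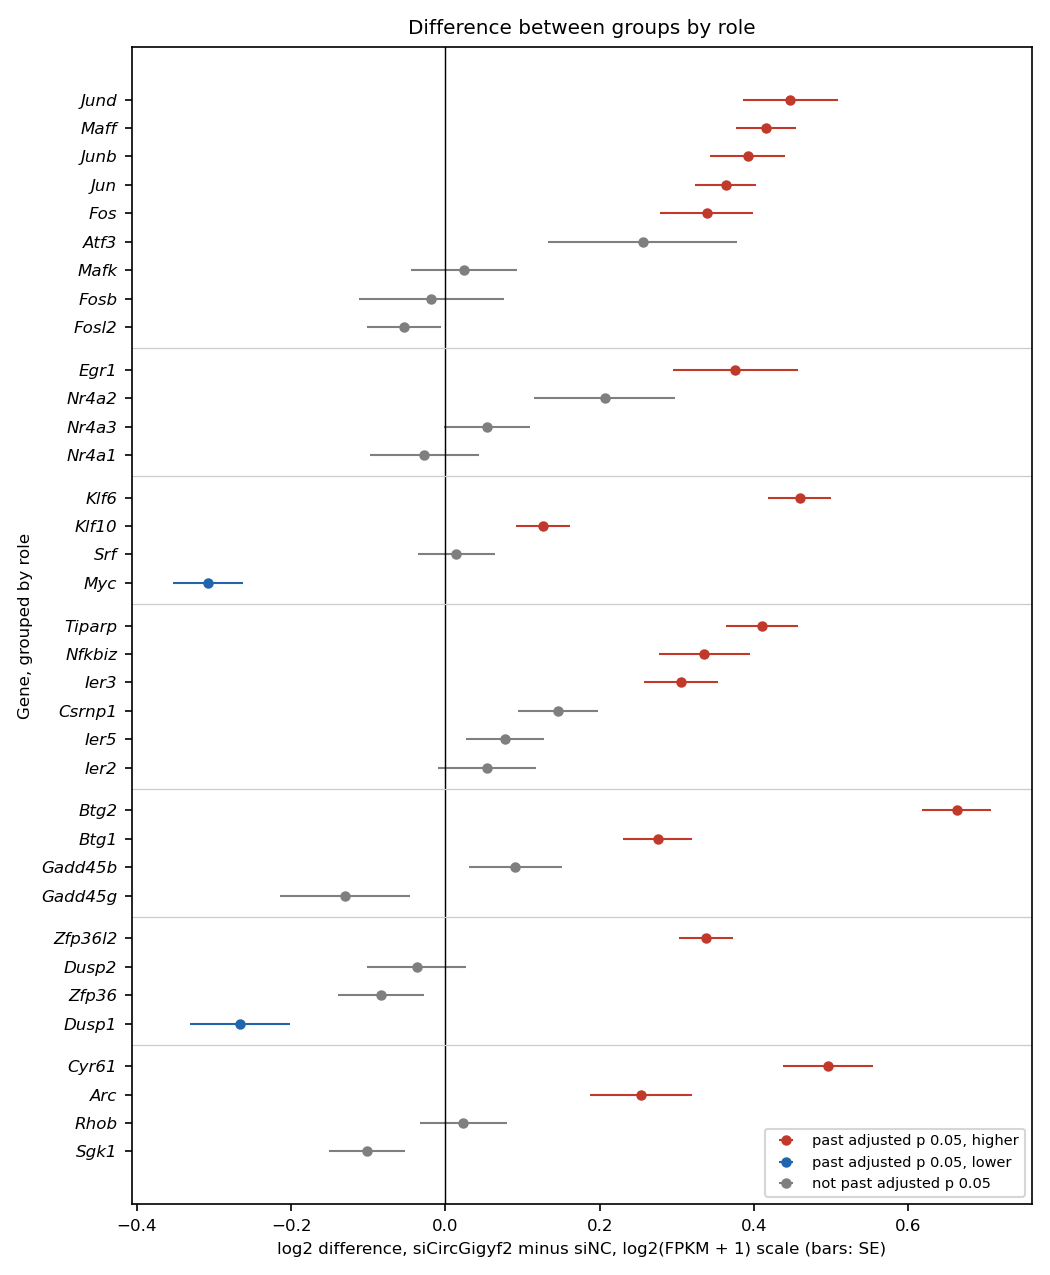
Log2 difference of each tested member, computed on log2(FPKM + 1) as siCircGigyf2 minus siNC, with its standard error as a bar, grouped by role as in the text. Red points rose, blue points fell and grey points did not pass, and each role has at least 1 red point, with Btg2 (0.66) and Cyr61 (0.50) farthest right and Myc (-0.31) and Dusp1 (-0.27) farthest left.

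The kinases and factors that act on these genes changed in both directions. Of 35 listed, all were tested, and 9 rose and 6 fell, 42.9% in all against 38.2% of all genes tested, with a median log2 difference of 0.04. By direction, 25.7% rose and 17.1% fell, against 19.5% and 18.7% of all genes tested. In the Ras-ERK cascade, Map2k1, the kinase MEK1, averaged 34.5 FPKM with siCircGigyf2 and 45.1 FPKM with siNC and fell by 0.38 (limma adjusted p = 0.000104). Rps6ka2, an ERK-activated kinase of the RSK family, averaged 20.9 against 28.4 FPKM and fell by 0.43 (limma adjusted p = 5.68e-05). In contrast Nras averaged 32.1 against 27.1 FPKM and rose by 0.24 (limma adjusted p = 0.000628). The JNK gene Mapk9 averaged 19.9 against 24.5 FPKM and fell by 0.28 (limma adjusted p = 0.000659). These are the 4 called genes of smallest p in the list, and 3 of them fell, whereas 9 of all 15 called genes rose.

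Other early response genes, outside the 42, numbered 30, of which 26 were tested. With siCircGigyf2 11 rose and 5 fell, 61.5% in all against 38.2% of all genes tested, and the median log2 difference was 0.08. By direction, 42.3% rose against 19.5% of all genes tested, whereas the 19.2% that fell were near the 18.7% of all genes tested. Vgf, a secreted neuropeptide precursor, averaged 517 FPKM against 413 FPKM and rose by 0.32 (limma adjusted p = 0.000199). Phlda1 averaged 45.7 against 34.8 FPKM and rose by 0.38 (limma adjusted p = 0.000385). The falls included Gem, a small GTPase that inhibits calcium channels, at 7.61 against 12.0 FPKM (log2 difference -0.60, limma adjusted p = 0.000104), and Rgs2, a regulator of G protein signalling, at 12.8 against 17.8 FPKM (-0.45, limma adjusted p = 0.000362). Npas4 and Bdnf, genes of neuronal activity, were under 0.18 FPKM on average in each group, and Ptgs2 was listed at 0.

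**Figure D4:**
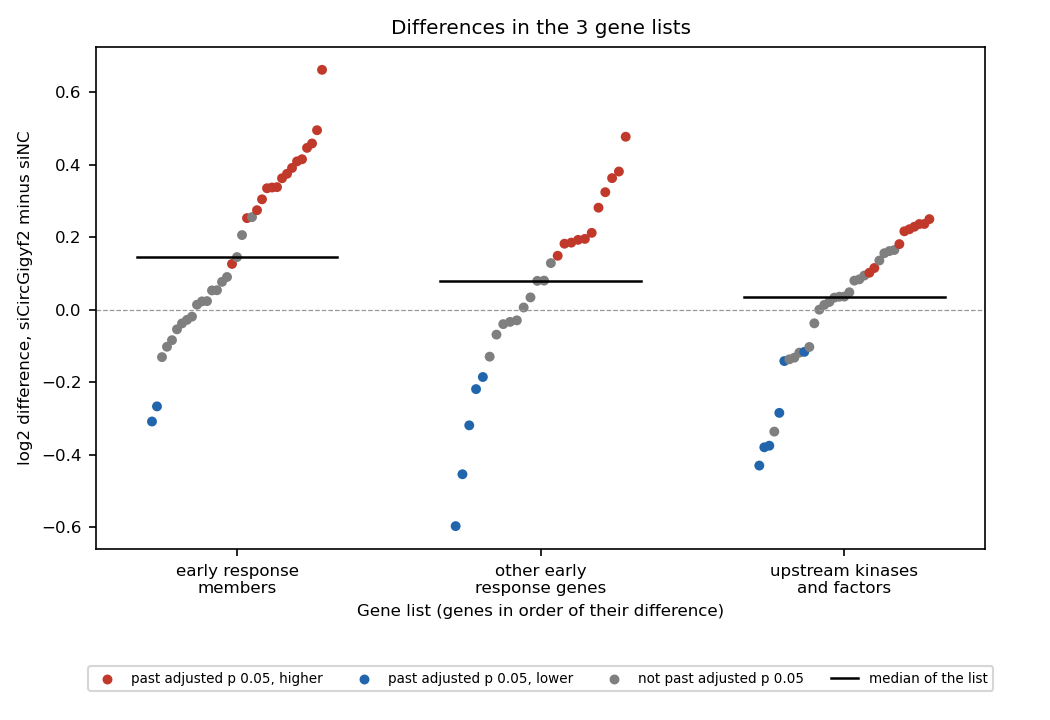
Log2 difference of each tested gene, siCircGigyf2 minus siNC, in the 35 tested members, 26 other early response genes and 35 upstream kinases and factors, in order within each list. Black lines are the medians (0.15, 0.08 and 0.04), and each list holds genes that rose (red) and fell (blue).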

How the data were processed

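RNA-seq was made from 3 siCircGigyf2 and 3 siNC samples of CAD cells. Groups came from the treatment labels and replicate numbers from the titles, and the labels do not say whether replicates were separate cultures. The p-values therefore reflect only variation among these libraries, possibly technical. A single FPKM table by gene symbol was deposited by the authors. Per the submitters' processing notes the build was mm9. Aligner, quantifier, annotation and strand handling are not given in the sources used here. Overlapping or antisense genes are therefore uncertain. An exact 0 can be a failed estimate, so no fold is given against it. Relative depth was read from the steps among FPKM values under 0.3.

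Genes with a mean of at least 1 FPKM were fitted in limma 3.58.1 (R 4.3.3) after taking log2(FPKM + 1) (2 groups, empirical Bayes with a variance trend, two-sided). P-values were adjusted by the Benjamini-Hochberg method over 11420 genes, with a threshold of 0.05. Differences are on that log2 scale, which understates low genes. All 42 members are accounted for. By rule, values per library are given for called members and for the 5 others of largest difference, and means for up to 4 called genes of smallest p in each pathway list. Fosl2 and Zfp36 are also given per library, chosen after their values were seen, as were further named genes. The members and lists were chosen with earlier results of these data known. On simulated data for this comparison (11420 genes) recovery was 53.8% for 1.2-fold changes, 83.6% for 1.5-fold and 96.9% for 2-fold, with 10 false among 162 calls. The simulation changed 80, 55 and 65 genes by these folds, with noise independent between genes. In the data 38.2% of genes passed, and the adjusted threshold depends on that share. The simulated rates therefore need not hold for the data. Alternatives were another pseudocount (0.1), filter (none or 5 FPKM), scaling (median-of-ratios or quantile), the replicate block, no trend, robust fitting and leaving out each library. Gene structure and 3' UTRs came from GENCODE M21 (longest coding transcript), promoters from RefSeq, both on GRCm38 and joined by symbol in Python 3.11.15.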

Additional observations from a re-analysis of the deposited data

How the results depend on the processing

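Under the 14 alternatives, 14 to 18 members rose and 2 fell in each, against 16 and 2 in the reported fit. Of the 18 called members, 16 kept their direction and call under all 14, and Klf10 and Arc lost it only when a library was left out. With the replicate block 16 members rose and 2 fell, and over all genes 2047 rose and 1926 fell. Deviations of same-numbered libraries correlated at 0.163, -0.0208 and 0.00253, and those of differently numbered libraries at -0.119 to 0.131. Such low values cannot tell whether same-numbered samples were prepared together. Upstream genes that rose numbered 6 to 10 and that fell 5 to 8, and other early response genes 10 to 12 and 4 to 5. Members that changed sign had not passed the test. Leaving out 1 library gave log2 differences of -0.07213 to 0.03845 for Fosb, -0.03434 to 0.08745 for Mafk, -0.09413 to 0.02898 for Nr4a1, -0.007046 to 0.04052 for Srf, -0.06628 to 0.003276 for Dusp2 and -0.02427 to 0.07934 for Rhob, and the cause was not tested. The median log2 difference of all genes lay between -0.00334 and 0.00617 under the alternatives. Members under 1 FPKM rest on few fragments, and no difference was tested for them.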
